A study of Mus musculus with 12 samples.

Results

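The unfolded protein response and the integrated stress response were followed through 10 genes (Ddit3, Atf4, Atf5, Trib3, Chac1, Asns, Hspa5, Xbp1, Sdf2l1 and Herpud1) in the mouse brain after cerebral ischemia/reperfusion (I/R). The genes were taken from the deposited count table by their symbols, 10 of the 39756 genes listed, and all 10 were among the 17558 genes with enough counts to be tested. RNA came from the ischemic hemispheres of 12 male mice aged 9 to 10 weeks, C57BL/6J by the labels, in 3 groups of 4. Sham mice had the surgery without an occlusion and received saline, and their hemisphere carries the same tissue label. Vehicle mice had 45 min of transient occlusion of the left middle cerebral artery (tMCAO) followed by reperfusion, and also received saline. LJP mice had the same occlusion and received Laminaria japonica polysaccharide, a sulfated polysaccharide of an edible brown seaweed. All groups were dosed by gavage once daily from 14 days before surgery. The middle of 3 doses was chosen for the work that followed dose finding, in which mice were assessed a few days after surgery, but the account of the sequencing does not itself state the dose or the time for these 12 mice. A whole hemisphere mixes infarcted, bordering and uninjured tissue, and all samples share 1 batch label.

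The unfolded protein response begins at sensors in the membrane of the endoplasmic reticulum (ER), the compartment in which secreted and membrane proteins fold. IRE1 splices the Xbp1 transcript into the form that encodes an active transcription factor, ATF6 is cut to release another, and PERK phosphorylates the translation factor eIF2. The integrated stress response shares that last step with kinases that sense amino acid shortage, heme loss or double-stranded RNA: general translation falls while the Atf4 messenger is translated better, and ATF4 protein then drives genes such as Ddit3, Trib3, Chac1 and Asns. Arrest of protein synthesis through eIF2 phosphorylation is a long-known feature of brain tissue that is reperfused after ischemia. Counts of RNA see neither phosphorylation, nor translation of Atf4, nor, in a table of reads per gene, the spliced form of Xbp1.

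The promoters of the 10 genes are shown first, because the branches of the response act through defined sequence elements. RefSeq promoter sequences (GRCm38.p6, 250 bases before to 50 bases after the start site) held 11 windows for the 10 genes, Atf5 having more than 1. Of 4 motifs searched on both strands, the ER stress element (CCAAT, then 9 bases, then CCACG), to which ATF6 and XBP1 bind with NF-Y, was in the Hspa5 window alone and in 0.119% of all 32851 promoters. The related ERSE-II (ATTGG, 1 base, CCACG) was in that of Herpud1 and in 0.0365% of all promoters. The core of the C/EBP-ATF response element (TGATGNAA), bound by ATF4 with a C/EBP partner, was in 4 windows, those of Trib3, Chac1, Asns and Herpud1, and in 3.97% of all promoters. The core of the UPR element (TGACGTGG) was in 0 of the 11 windows and in 0.676% of all promoters. The motif searches do not overlap in the stretches below, in which the matches stand in capitals and all are written 5′ to 3′ on the strand of the gene.
Hspa5, chr2:34772013-34772055, plus strand: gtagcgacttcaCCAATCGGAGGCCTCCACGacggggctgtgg
Herpud1, chr8:94386305-94386399, plus strand: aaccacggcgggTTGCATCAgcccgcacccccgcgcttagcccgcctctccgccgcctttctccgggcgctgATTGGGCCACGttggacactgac
Chac1, chr2:119351037-119351068, plus strand: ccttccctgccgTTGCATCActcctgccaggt
Asns, chr6:7693213-7693244, minus strand: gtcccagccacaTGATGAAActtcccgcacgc

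In Trib3 the match (TTACATCA, the core read on the other strand) lay after the start site, at bases 15 to 22 of the transcribed part. Herpud1 was the gene whose window held 2 of the motifs, 1 from the ER branch and 1 from the ATF4 branch. Sdf2l1, of the ER chaperone system and higher in Vehicle than in Sham (below), had no match to any of the 4 motifs. Its 250 upstream bases did hold 3 copies each of the outer parts of the ER stress element, CCAAT and CCACG, on either strand but not at the spacing searched, and 33.8% and 28.3% of all promoters hold such a part. Those within 80 bases of its start site stand in capitals.
Sdf2l1, chr16:17132384-17132463, minus strand: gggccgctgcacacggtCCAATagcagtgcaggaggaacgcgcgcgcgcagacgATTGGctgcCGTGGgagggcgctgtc

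A match is a description of the letters and not a measurement of binding.

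Each library held between 17960353 and 22216315 counted reads. Neuronal markers were high in all 12 hemispheres (summed level 6168 to 10873 CPM, the reads of a gene per 1000000 reads of its library after TMM scaling), as fits brain tissue, but the make-up of the tissue moved with the groups. The summed level of 10 microglia and macrophage markers was 219.9 to 231.8 CPM in Sham, 535 to 856 CPM in Vehicle and 377 to 702 CPM in LJP, and 9 of the 10 were called higher in Vehicle than in Sham. Of 8 endothelial markers 6 were called higher, with sums of 241 to 274 CPM in Sham, 467 to 2125 CPM in Vehicle and 291 to 441 CPM in LJP. Of 10 neuronal markers 3 were called lower. Over all genes tested, 22.7% were called higher and 17.3% lower in Vehicle against Sham. Vehicle mice 1 and 2 stood apart from Vehicle mice 3 and 4: their endothelial sums were 958 and 2125 CPM against 467 and 523 CPM, their neuronal sums 7705 and 6168 CPM against 9729 and 9314 CPM, and their neutrophil marker sums 147 and 34.2 CPM against 0.70 and 5.07 CPM. Neutrophil sums were 0.27 to 0.52 CPM in Sham and 0.20 to 1.11 CPM in LJP, and the neutrophil marker Elane had no count in any mouse. In hemispheres of mixed cells, fewer cells of a type and less RNA per cell cannot be told apart. Choroid plexus marker sums also split the Vehicle mice, 26.4 and 30.4 CPM in mice 1 and 2 against 542 and 498 CPM in mice 3 and 4, and varied as widely within Sham. Results are also given below with Vehicle mice 1 and 2 left out, an alternative chosen after the marker sums were seen.

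The 10 genes spanned a wide range of levels. Per kilobase of gene length, Hspa5 was the highest in Sham (104 ± 3.07 CPM per kb, SD, n = 4), followed by Atf4 (52.4 ± 3.92 CPM per kb). Xbp1 (33.4 ± 1.05 CPM per kb) and Asns (32.4 ± 2.23 CPM per kb) were neighbours in that order that did not differ beyond their spread. Herpud1 (26.0 ± 2.20), Atf5 (15.4 ± 0.50), Sdf2l1 (12.3 ± 1.62), Ddit3 (8.31 ± 0.47) and Chac1 (4.85 ± 0.77 CPM per kb) came next. Trib3 was the lowest (0.38 ± 0.14 CPM per kb), with 10 to 23 reads in a Sham library, so its values carry the largest counting error.

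**Figure D1:**
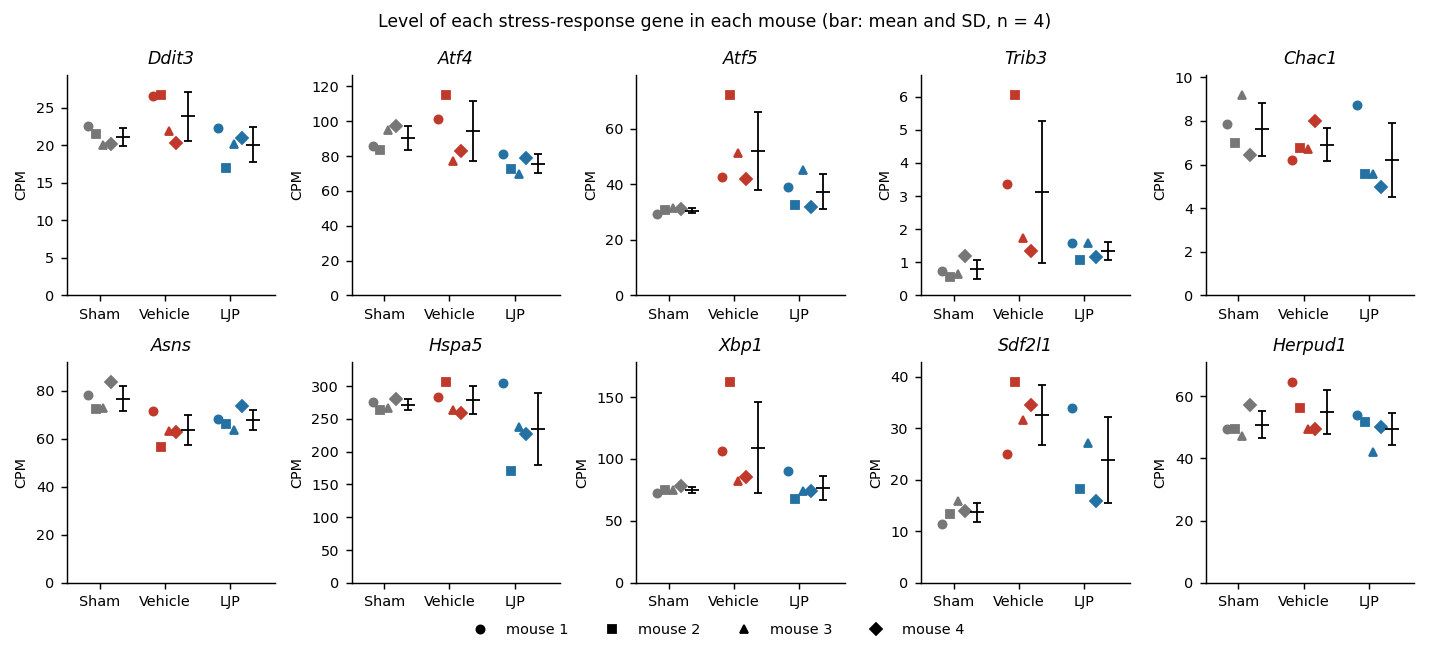
Level of each of the 10 genes in every mouse, in CPM on linear axes that start at 0, with 1 marker shape per mouse number within a group and a bar for the mean and SD of 4 mice. Atf5, Trib3, Xbp1 and Sdf2l1 lay higher in every Vehicle mouse than in any Sham mouse, Asns lay lower, and Vehicle mouse 2 was the highest Vehicle mouse for 7 of the 10 genes. How often the groups lie apart over all genes was not counted.

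The comparison of Vehicle with Sham asks what I/R did to these genes. Sdf2l1, Trib3, Atf5 and Xbp1 rose and Asns fell, while the best-known markers of the responses, Hspa5, Ddit3 and Atf4, did not pass the test. Thus 5 of the 10 genes were called by the edgeR quasi-likelihood test with an adjusted p below 0.05, 4 higher and 1 lower. DESeq2 called 5 as well, beside 7669 of all 17558 genes tested. I/R changed much of the transcriptome: edgeR called 39.9% of all genes tested (22.7% higher and 17.3% lower), so a share of 5 in 10 is close to that background. The share of all genes whose groups did not overlap was not counted. Groups that lie apart, here and below, are therefore only a description of the mice. The median log2 fold change of the 10 genes was 0.15, against 0.00 for all genes. Scaling by library size alone moved the split of all calls from 3982 higher and 3032 lower (56.8% higher) to 4737 higher and 2299 lower (67.3% higher). Under it the median of all genes was at 0.08 on the log2 scale and Asns was no longer called.

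**Figure D2:**
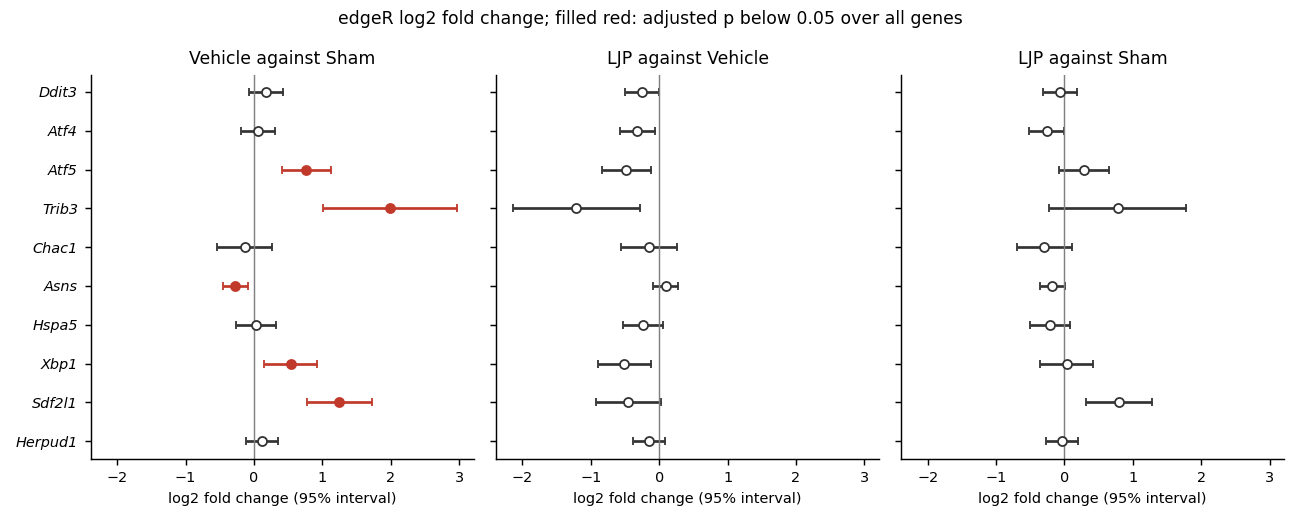
edgeR log2 fold change of each gene with its 95% interval in the 3 comparisons, filled red where the adjusted p over all genes tested was below 0.05. The 5 filled points are all in the panel of Vehicle against Sham, from -0.27 for Asns to 1.99 for Trib3, and every point but that of Asns lies below 0 in the panel of LJP against Vehicle.

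Of the ER chaperone genes among the 10, Sdf2l1 rose and Hspa5 did not pass. Sdf2l1 (chr16:17130138-17132383, GRCm38) encodes a small soluble ER protein that works with the Hspa5 chaperone and its J-domain partners and is a known target of ER stress. Its level was 11.5, 13.4, 15.8 and 13.9 CPM in Sham mice 1 to 4, and 25.004, 39.0, 31.5 and 34.4 CPM in Vehicle mice 1 to 4. Every Vehicle mouse was above every Sham mouse, and the difference was 1.25 on the log2 scale (SE 0.22, adjusted p = 0.0014), or 2.38-fold. It did not rest on Vehicle mice 1 and 2, without which it was 1.27 (adjusted p = 0.00064). Hspa5 (chr2:34772090-34776529), which encodes BiP, the major Hsp70 chaperone of the ER, was at 276, 264, 266 and 281 CPM in Sham and at 284, 307, 263 and 260 CPM in Vehicle. The groups overlapped and the estimate was 0.04 (95% interval -0.26 to 0.33, adjusted p = 0.85). With the gene Rabepk on the opposite strand over part of Hspa5 and a library kit that does not mark strand, some reads could belong to either gene, although Rabepk had only 265 to 489 reads per library against 3336 or more for Hspa5.

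Herpud1 (chr8:94386429-94395371), a membrane protein that helps assemble the machinery of ER-associated degradation, was at 49.6, 49.6, 47.2 and 57.1 CPM in Sham and at 64.6, 56.2, 49.6 and 49.4 CPM in Vehicle. Only Vehicle mouse 1 was above all Sham mice, and the estimate was 0.11 (95% interval -0.12 to 0.34, adjusted p = 0.43). Xbp1 (chr11:5520641-5525993), the transcription factor of the IRE1 branch, was at 72.3, 75.2, 75.0 and 78.1 CPM in Sham. In Vehicle it was at 106, 162, 82.6 and 85.7 CPM, again above every Sham mouse, with a difference of 0.54 (SE 0.18, adjusted p = 0.030). The call was fragile. It was lost in the fit of Vehicle and Sham mice alone (adjusted p = 0.062) and with the mouse number as a block (adjusted p = 0.056). It was also lost in 6 of the 12 fits that left out 1 mouse (any Sham mouse, Vehicle mouse 1 or Vehicle mouse 2, adjusted p from 0.0504 to 0.072), and without Vehicle mouse 2 the difference was 0.28. With that mouse and Vehicle mouse 1 both left out it was 0.16 (adjusted p = 0.21).

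The transcription factors of the eIF2 arm did not move alike. Atf5 (chr7:44812256-44816658), an ATF4-related factor that is also linked to the mitochondrial stress response, was at 29.2, 30.7, 31.5 and 31.0 CPM in Sham and at 42.7, 72.4, 51.2 and 41.9 CPM in Vehicle. All Vehicle mice were above all Sham mice, with a difference of 0.77 (SE 0.17, adjusted p = 0.0039), or 1.70-fold. The difference was 0.60 without Vehicle mice 1 and 2 (adjusted p = 0.0020). Nup62 (592 to 1233 reads) and Il4i1b (38 to 103 reads) overlap Atf5 on the other strand, so part of its 506 to 1684 reads could be theirs. Atf4 (chr15:80255184-80257545), the central factor of the integrated stress response, was at 85.8, 83.8, 95.02 and 97.6 CPM in Sham and at 102, 115, 77.4 and 83.1 CPM in Vehicle. Vehicle mice 1 and 2 lay above the Sham range and Vehicle mice 3 and 4 below it, and the estimate was 0.06 (95% interval -0.19 to 0.31, adjusted p = 0.70). It turned to -0.06 without Vehicle mouse 2. Ddit3 (chr10:127290793-127296291), which encodes the pro-apoptotic factor CHOP, was at 22.6, 21.6, 20.1 and 20.2 CPM in Sham and at 26.5, 26.8, 21.9 and 20.4 CPM in Vehicle. The same pair of mice, 1 and 2, lay above the Sham range, with an estimate of 0.18 (95% interval -0.07 to 0.43, adjusted p = 0.23). Ddit3 shares bases with Mars1 and Mbd6 on the other strand, whose reads outnumber its own.

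Of the effectors downstream of ATF4 and CHOP, 1 rose, 1 fell and 1 did not pass. Trib3 (chr2:152337425-152344060), a pseudokinase that dampens AKT signaling and ATF4 activity, was at 0.75, 0.54, 0.66 and 1.19 CPM in Sham and at 3.36, 6.06, 1.72 and 1.35 CPM in Vehicle, from 10 to 23 reads and 25 to 141 reads. It had the largest fold of the 10 genes, 3.96-fold (log2 1.99, SE 0.45, adjusted p = 0.0049). The groups did not overlap, but Vehicle mouse 4 and Sham mouse 4 were close together. Without Vehicle mouse 2 the difference was 1.44 (adjusted p = 0.0091), and without Vehicle mice 1 and 2 it was 0.95 (adjusted p = 0.058), no longer past the threshold. Asns (chr6:7675165-7693209), asparagine synthetase and a standard readout of amino acid shortage, was at 78.0, 72.2, 72.9 and 83.6 CPM in Sham and at 71.5, 56.6, 63.2 and 62.8 CPM in Vehicle. Every Vehicle mouse was below every Sham mouse, with a difference of -0.27 (SE 0.08, adjusted p = 0.022). Its call was lost without Sham mouse 1 (adjusted p = 0.056) or Sham mouse 4 (adjusted p = 0.067), with no filter on low counts (adjusted p = 0.053), in the fit of Vehicle and Sham mice alone (adjusted p = 0.053) and with library size only (adjusted p = 0.064), and kept without Vehicle mice 1 and 2 (-0.29, adjusted p = 0.0090). Chac1 (chr2:119351242-119354326), which degrades glutathione, was at 7.84, 6.97, 9.21 and 6.43 CPM in Sham and at 6.22, 6.75, 6.73 and 7.97 CPM in Vehicle, groups that overlapped (-0.14, 95% interval -0.55 to 0.27, adjusted p = 0.58).

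Leaving out Vehicle mice 1 and 2 thus kept the calls of Sdf2l1, Atf5 and Asns and ended those of Trib3 and Xbp1, so 3 of the 10 genes were called beside 29.7% of the 18066 genes tested in that fit. Trib3, Xbp1, Atf4, Ddit3, Hspa5 and Herpud1 each had their highest Vehicle values in mice 1 and 2, the mice with the highest endothelial and neutrophil and the lowest neuronal marker sums. The part of these cell types in the levels of these genes was not tested.

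**Figure D3:**
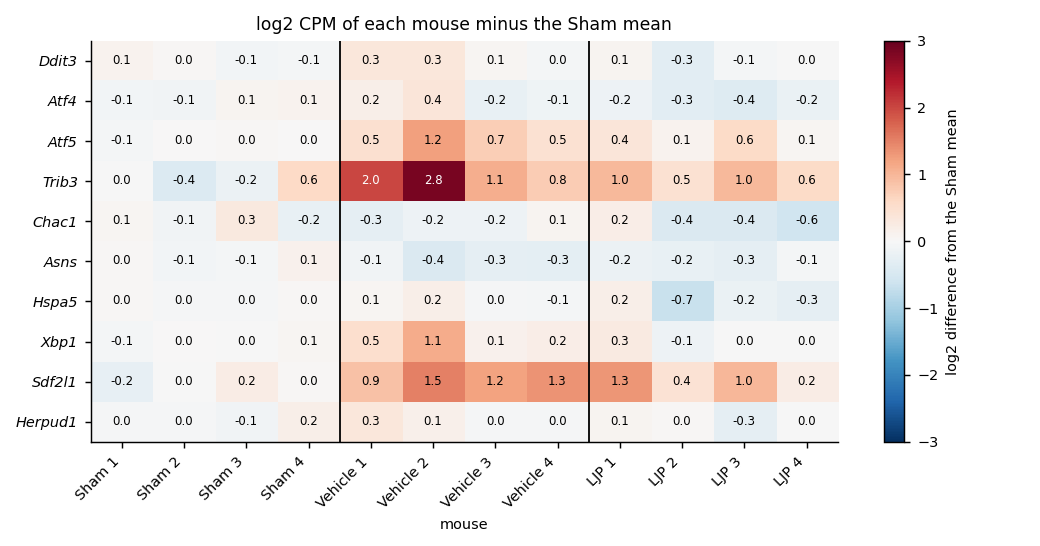
log2 CPM of each gene in each mouse minus the mean of the 4 Sham mice, in columns by mouse, with black lines between the groups and the colour scale running from -3 to 3. Trib3 in Vehicle mouse 2 is the darkest cell, and LJP mouse 2 is lowest for Hspa5. Sdf2l1, Atf5 and Trib3 are above the Sham mean in every mouse of both I/R groups.

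The comparison of LJP with Vehicle asks whether the polysaccharide changed these genes after I/R. None of the 10 genes was called by edgeR at an adjusted p below 0.05, where 0.0228% of all genes were (4 of 17558), and 0 of 10 by DESeq2, which called 13.7% of all genes. At an unadjusted p below 0.05 edgeR counted 5 of the 10, Ddit3, Atf4, Atf5, Trib3 and Xbp1, beside 29.7% of all genes. Estimates were lower in LJP for 9 of the 10 genes, the exception being Asns, with a median of -0.28 against 0.00 for all genes. Because the Vehicle mice serve in this comparison and in that with Sham, high Vehicle values raise the estimate of one and lower that of the other.

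Trib3 had the largest estimate, at 1.59, 1.07, 1.58 and 1.17 CPM in LJP mice 1 to 4, a difference from Vehicle of -1.21 (95% interval -2.13 to -0.29, adjusted p = 0.098). The LJP mice lay within or below the range of Vehicle mice 3 and 4, and all 4 were below Vehicle mice 1 and 2. Without that pair the difference was -0.18 (adjusted p = 0.86). Xbp1 was at 90.7, 67.9, 74.1 and 74.2 CPM in LJP, with mouse 1 above every Sham mouse and above Vehicle mice 3 and 4, mouse 2 below every Sham mouse and mice 3 and 4 within the Sham range, and a difference from Vehicle of -0.51 (95% interval -0.90 to -0.12, adjusted p = 0.098). It was -0.13 without Vehicle mice 1 and 2 (adjusted p = 0.54). Atf5 was at 39.2, 32.7, 45.4 and 31.9 CPM in LJP, where LJP mice 1, 2 and 4 were below all Vehicle mice, with a difference of -0.48 (95% interval -0.84 to -0.12, adjusted p = 0.094). Atf4 was at 81.3, 72.7, 69.5 and 78.9 CPM, a difference of -0.32 (95% interval -0.57 to -0.07, adjusted p = 0.10). Ddit3 was at 22.3, 17.0, 20.2 and 21.0 CPM, a difference of -0.25 (adjusted p = 0.17). Without the pair of Vehicle mice the differences were -0.32 for Atf5 (adjusted p = 0.29), -0.09 for Atf4 (adjusted p = 0.67) and -0.07 for Ddit3 (adjusted p = 0.81).

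These values depended on which Vehicle mice were in the fit. Without Vehicle mouse 3 the test called Atf4 (-0.40, adjusted p = 0.027), Trib3 (-1.40, adjusted p = 0.038) and Xbp1 (-0.61, adjusted p = 0.029), 3 of the 10 genes beside 21.6% of all genes. Without Vehicle mouse 4 it called Atf5 (-0.57, adjusted p = 0.048), Trib3 (-1.45, adjusted p = 0.039) and Xbp1 (-0.61, adjusted p = 0.049), again 3 of the 10, beside 11.7% of all genes. Without Vehicle mice 1 and 2 it called 0 of the 10 genes and 0.0443% of all genes, with estimates between -0.47 for Sdf2l1 and 0.10 for Asns. No gene of the 10 was called in every fit.

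The ER chaperone genes spread widely in the LJP group itself. Hspa5 was at 304, 171, 238 and 227 CPM, with LJP mouse 1 near the top Vehicle mouse and LJP mouse 2 the lowest of all 12 mice, and its difference from Vehicle was -0.24 (95% interval -0.54 to 0.05, adjusted p = 0.24). Sdf2l1 was at 33.9, 18.3, 27.1 and 15.8 CPM, a difference from Vehicle of -0.45 (95% interval -0.92 to 0.02, adjusted p = 0.18). With 1 mouse left out, the difference of Hspa5 ran from -0.39 (without LJP mouse 1) to -0.12 (without LJP mouse 2) and that of Sdf2l1 from -0.67 (without LJP mouse 1) to -0.30 (without LJP mouse 4), and neither was called. LJP mice 1 and 3 were within the Vehicle range of Sdf2l1, while LJP mice 2 and 4 were below it. The same pair, LJP mice 1 and 3, had the higher Atf5 and Trib3 levels of the group and microglia and macrophage marker sums of 673 and 702 CPM, against 381 and 377 CPM in LJP mice 2 and 4. Endothelial sums (328 and 441 against 294 and 291 CPM) and neuronal sums (9205 and 9215 against 10548 and 10873 CPM) also split these mice. In Vehicle, mouse 2 had the highest microglia and macrophage sum, Trib3 and Atf5. Vehicle mouse 1 had the lowest sum (535 CPM) with Trib3 at 3.36 CPM, while mouse 4 (715 CPM) had the lowest Trib3 and Atf5. The part of these cell types was not tested. Herpud1 was at 54.0, 51.8, 41.9 and 50.1 CPM (-0.15, adjusted p = 0.35), Chac1 at 8.72, 5.57, 5.55 and 4.96 CPM (-0.15, adjusted p = 0.60) and Asns at 68.0, 66.0, 63.7 and 73.5 CPM (0.09, adjusted p = 0.46). LJP mouse 1 was the highest LJP mouse for 8 of the 10 genes.

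Compared with Sham, 0 of the 10 genes were called in LJP, beside 4.75% of all genes, and 2 of 10 had an unadjusted p below 0.05 (Atf4 and Sdf2l1), beside 18.8% of all genes. Sdf2l1 had the largest estimate, 1.74-fold (log2 0.80, SE 0.22, adjusted p = 0.061), with LJP mice 1, 2 and 3 above every Sham mouse and LJP mouse 4 within the Sham range. DESeq2 called it (0.80, adjusted p = 0.012), 1 of the 10 genes beside 8.71% of all genes. So did edgeR without Vehicle mouse 2 (adjusted p = 0.028), without LJP mouse 4 (adjusted p = 0.023), with the Sham and LJP mice alone (adjusted p = 0.011, beside 23.8% of all genes) and with no filter on low counts (adjusted p = 0.041, beside 2.76% of all genes). All-gene calls in LJP against Sham were 2357 without Vehicle mouse 2 and 741 without LJP mouse 4, against 834 in the fit as reported. With Vehicle mice 1 and 2 left out of the shared estimate of the spread, 3 of the 10 genes were called against Sham, Sdf2l1 (adjusted p = 0.0074), Atf4 (adjusted p = 0.0078) and Asns (-0.19, adjusted p = 0.036), beside 24.3% of all genes. Atf5 was higher in every LJP mouse than in any Sham mouse without passing the test (0.29, 95% interval -0.07 to 0.64, adjusted p = 0.39). Atf4 was lower in every LJP mouse than in any Sham mouse, also without passing (-0.26, 95% interval -0.51 to -0.01, adjusted p = 0.25), and passed in the fit of Sham and LJP mice alone (-0.27, adjusted p = 0.011). Xbp1 was near 0 (0.03, 95% interval -0.36 to 0.42).

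Levels of genes that share a pathway were also set against each other within a mouse, as 3 ratios of reads per gene length. Each pair was chosen after the values were seen, a gene that rose over one that did not pass, so the ratios only describe the results above. Exact permutation tests of the 9 differences between groups were also run. In 5 of them the exact p was 0.029, the smallest that 4 mice against 4 allow, which is 0.051 after Benjamini-Hochberg adjustment over the 9, and with pairs chosen this way nothing is drawn from these tests in either direction. Sdf2l1 stood at 9.80%, 12.0%, 14.03% and 11.7% of Hspa5 in Sham mice 1 to 4, at 20.8%, 30.01%, 28.3% and 31.3% in Vehicle and at 26.3%, 25.3%, 26.8% and 16.4% in LJP. The ratio was higher in every I/R mouse than in any Sham mouse. Its means were 11.9% ± 1.73 (SD, n = 4) in Sham, 27.6% ± 4.70 in Vehicle and 23.7% ± 4.91 in LJP. LJP mice 2 and 3 had nearly the same ratio although their Hspa5 and Sdf2l1 levels differed. Atf5 stood at 29.4% ± 1.78 of Atf4 in Sham, 48.0% ± 9.68 in Vehicle and 43.2% ± 9.38 in LJP, again with every I/R mouse above every Sham mouse. Trib3 stood at 4.65% ± 1.83 of Ddit3 in Sham, 15.4% ± 9.02 in Vehicle and 8.32% ± 1.20 in LJP. It was 15.7% and 28.1% in Vehicle mice 1 and 2 and 9.74% and 8.20% in Vehicle mice 3 and 4, against at most 7.31% in Sham. Vehicle and LJP mice overlapped in all 3 ratios.

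**Figure D4:**
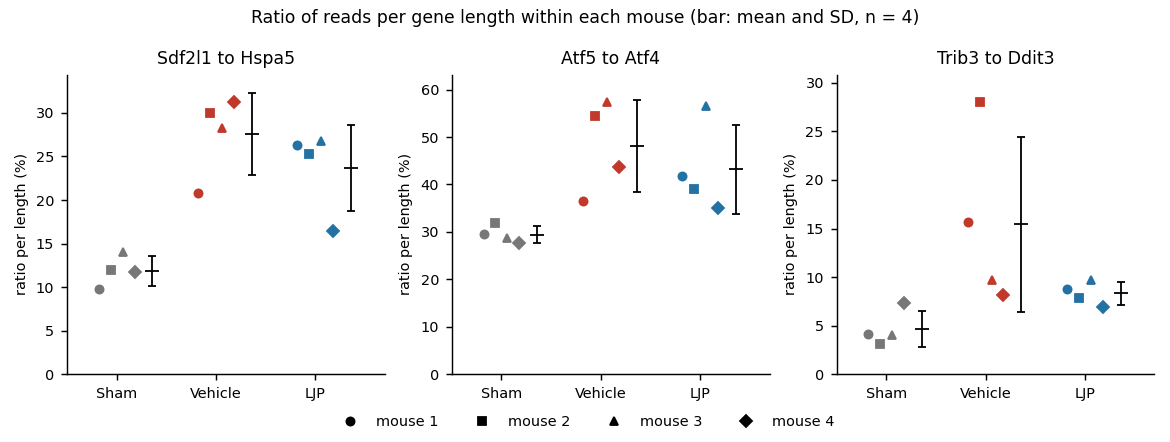
Reads per gene length of Sdf2l1 as a percent of Hspa5, of Atf5 as a percent of Atf4 and of Trib3 as a percent of Ddit3 in each mouse, with a bar for the mean and SD of 4 mice. For Sdf2l1 to Hspa5 and Atf5 to Atf4, all 8 I/R mice lie above the 4 Sham mice, and the Vehicle and LJP mice overlap in all 3 panels.

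The rest of the pathway was followed in 5 lists that together held 177 tested genes, of which 75 (64 higher and 11 lower) were called in Vehicle against Sham. That is 42.4%, close to the 39.9% over all genes, with 36.2% higher (22.7% over all genes) and 6.21% lower (17.3% over all genes). Scaled by library size only, 78 were higher (44.1%, beside 27% over all genes) and 6 lower (3.39%, beside 13.1%). The targets of ATF4 and CHOP held 23 higher and 1 lower call in 51 genes with a median log2 fold change of 0.38, and the ER stress sensors and eIF2 machinery held 10 higher and 2 lower of 27 (median 0.22). The ER chaperones and folding enzymes held 21 higher and 4 lower of 50 (median 0.19), and ER-associated degradation held 9 higher and 3 lower of 32 (median 0.10). In the mitochondrial chaperones and proteases 2 rose and 1 fell of 18 (median 0.01). Without Vehicle mice 1 and 2, 56 of the 177 were called, 43 higher (24.3%, beside 15.7% over all genes in that fit) and 13 lower (7.34%, beside 14%). The higher calls were then 21 for the ATF4 and CHOP targets, 9 for the chaperones and folding enzymes, 6 for the sensors, 6 for the degradation genes and 1 for the mitochondrial list. The median over the 177 genes went from 0.16 to 0.05, that of the sensors from 0.22 to 0.05 and that of the degradation genes from 0.10 to -0.01. The medians were then 0.28 for the ATF4 and CHOP targets, 0.14 for the chaperones and folding enzymes and -0.04 for the mitochondrial list.

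Against Vehicle, 0 of the 177 genes were called in LJP by edgeR and 28 by DESeq2 (15.8%, beside 13.7% over all genes), of which 27 were lower (15.3%, beside 9.39% over all genes), with 66 at an unadjusted p below 0.05 (37.3%, beside 29.7%). These counts turned on the Vehicle mice in the fit: edgeR called 46 of the 177 without Vehicle mouse 3, 44 of them lower (26.0% called, beside 21.6% of all genes in that fit), and 28 without Vehicle mouse 4, all 28 lower (15.8%, beside 11.7%). Over all genes, 2345 of the 3857 calls were lower without Vehicle mouse 3 and 1496 of the 2095 without Vehicle mouse 4. Without the pair of Vehicle mice 1 and 2 edgeR called 0, and the median over the 177 genes went from -0.14 to -0.04. The LJP medians were -0.17, -0.16, -0.18, -0.12 and -0.03 for the sensors, the ATF4 and CHOP targets, the chaperones, the degradation genes and the mitochondrial list, and -0.01, -0.06, -0.11, -0.04 and 0.0046 without the pair. Against Sham, 8 of the 177 were called in LJP, 7 higher and 1 lower, which is 4.52% beside 4.75% over all genes.

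**Figure D5:**
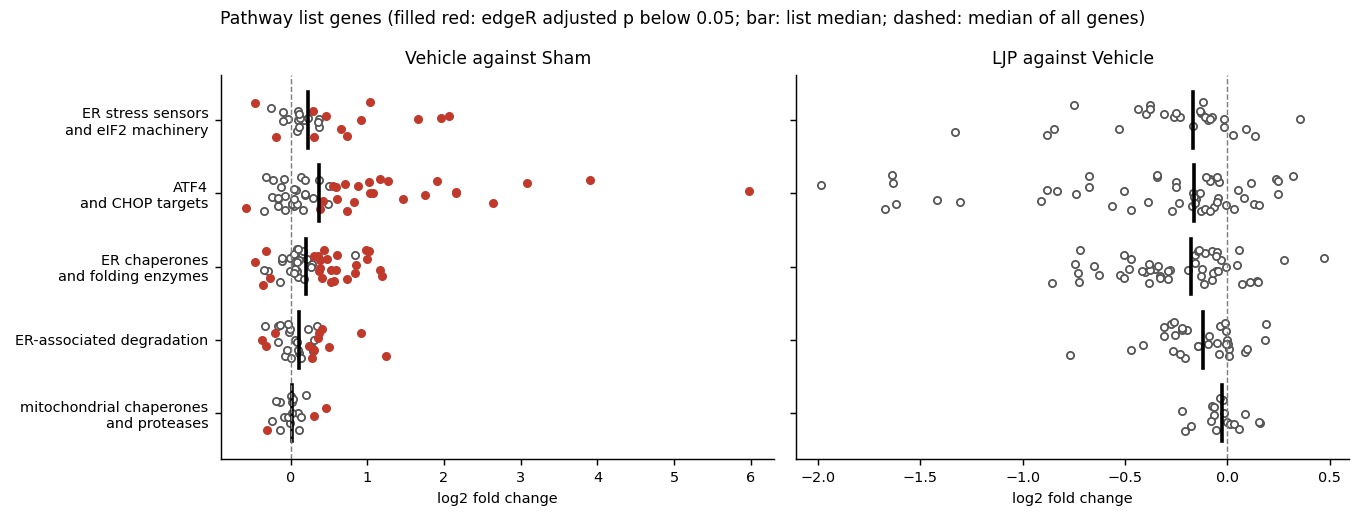
edgeR log2 fold change of every tested gene of the 5 pathway lists in Vehicle against Sham and in LJP against Vehicle, filled red where the adjusted p was below 0.05, with a black bar at each list's median and a dashed line at the median of all genes. Filled points lie mostly right of 0 in the panel of Vehicle against Sham, and the panel of LJP against Vehicle has none.

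Among the sensors and the eIF2 machinery, Ern1, which encodes IRE1 itself, rose from 7.61 ± 0.35 CPM in Sham to 12.7 ± 2.89 CPM in Vehicle (log2 0.74, adjusted p = 0.0032), and stood at 9.67 ± 0.54 CPM in LJP. Eif2ak2, the eIF2 kinase PKR that senses double-stranded RNA, rose from 7.31 ± 1.21 to 23.1 ± 9.22 CPM (log2 1.66, adjusted p = 0.0014) and was also higher in LJP than in Sham (17.1 ± 5.93 CPM, log2 1.23, adjusted p = 0.032), a call that held in 12 of 19 alternative fits (adjusted p up to 0.11). Creb3l1 and Creb3l2, ER-membrane transcription factors related to ATF6, rose by 1.96 and 0.92 on the log2 scale (adjusted p = 0.0030 and 0.0086). Eif2b2, a subunit of the exchange factor that phosphorylated eIF2 blocks, rose by 0.46 (adjusted p = 0.0046). Without Vehicle mice 1 and 2 the differences from Sham were smaller and still called, 0.47 for Ern1, 1.15 for Eif2ak2, 1.08 for Creb3l1, 0.51 for Creb3l2 and 0.30 for Eif2b2.

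Of the 51 targets of ATF4 and CHOP, 27 did not pass and 12 had estimates below 0. Of those named for their small p-values, Atf3, a stress-induced transcription factor, went from 0.78 ± 0.42 CPM in Sham to 11.7 ± 5.80 CPM in Vehicle (log2 3.91, adjusted p = 0.00021), and was at 4.75 ± 2.19 CPM in LJP, still above Sham (log2 2.60, adjusted p = 0.0085). Nupr1, a small stress-induced chromatin protein, rose from 3.86 ± 0.46 to 17.2 ± 7.55 CPM (log2 2.16, adjusted p = 0.00054) and stood at 15.7 ± 5.92 CPM in LJP (log2 2.02 against Sham, adjusted p = 0.0035). Its difference between LJP and Vehicle was -0.14 (adjusted p = 0.78), and 0.16 without Vehicle mice 1 and 2 (adjusted p = 0.84). Eif4ebp1, a repressor of cap-dependent translation, rose by 3.09 (adjusted p = 0.00051), the death receptor gene Tnfrsf10b by 2.64 (adjusted p = 0.0016) and the amino acid transporter subunit Slc3a2 by 1.02 (adjusted p = 0.00070). In LJP against Vehicle these last 3 had estimates of -1.62, -1.98 and -0.68, each with an adjusted p of 0.068. Without Vehicle mice 1 and 2, Atf3 (3.10), Eif4ebp1 (2.03), Nupr1 (1.86), Tnfrsf10b (1.75) and Slc3a2 (0.61) were still called against Sham, and the LJP estimates against Vehicle were -0.57 for Eif4ebp1, -1.09 for Tnfrsf10b and -0.28 for Slc3a2.

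Of the folding genes named for their small p-values, P4hb, protein disulfide isomerase, went from 112 ± 2.13 CPM in Sham to 256 ± 104 CPM in Vehicle (log2 1.19, adjusted p = 0.0018) and was at 141 ± 22.2 CPM in LJP (-0.85 against Vehicle, adjusted p = 0.068). Ppib, the ER prolyl isomerase cyclophilin B, rose by 1.00 (adjusted p = 0.0017), and Sec61a1 and Sec61b, subunits of the channel through which proteins enter the ER, rose by 0.98 and 0.83 (adjusted p = 0.0026 and 0.0024). Without Vehicle mice 1 and 2 these differences were 0.67 for P4hb, 0.69 for Ppib, 0.53 for Sec61a1 and 0.57 for Sec61b, all still called, and P4hb was at -0.34 in LJP against Vehicle (adjusted p = 0.21). In ER-associated degradation Edem1, a lectin that hands misfolded glycoproteins over for disposal and a known XBP1 target, rose from 28.4 ± 1.84 to 67.3 ± 11.5 CPM (log2 1.24, adjusted p = 0.00027). It remained at 55.5 ± 13.9 CPM in LJP (log2 0.97 against Sham, adjusted p = 0.0045). Edem2 (0.91), Aup1 (0.38) and Derl1 (0.36) rose as well, and Selenos did not pass (0.35, adjusted p = 0.071). Of the mitochondrial genes, the protease Htra2 rose by 0.46 (adjusted p = 0.0017) and Grpel1 by 0.31 (adjusted p = 0.036), the protease Yme1l1 fell by 0.31 (adjusted p = 0.0048), and the chaperone Hspa9 did not pass (0.10, adjusted p = 0.40). Leaving out Vehicle mice 1 and 2 ended the call of Grpel1 (0.09, adjusted p = 0.46), took Selenos to 0.01 and turned Hspa9 to -0.08 (adjusted p = 0.38). Edem1 (1.14), Edem2 (0.72), Aup1 (0.37), Derl1 (0.21), Htra2 (0.40) and Yme1l1 (-0.28) were still called.

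Over the 12 mice, the genes whose log2 CPM ran most like that of Ddit3 were 2310075K07Rik, Washc5 and Ddx18 (Pearson r = 0.93 for each). For Hspa5 they were Acot5 (0.94), Fam241a (0.90) and Nbeal1 (0.89), and for Asns Clcn3 (0.93), Tceal6 (0.92) and Trappc11 (0.92). None of these 9 was on the pathway lists. The points share the group differences and the cell make-up described above, and the names are the top of all genes tested, so they are given as descriptions.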

How the data were processed

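The deposited file holds raw counts of reads per gene for 12 mice, which the authors made from poly(A) RNA, prepared with a library kit that does not mark strand and sequenced as paired-end reads of 150 bp. The submitters' processing notes name featureCounts, DESeq2 and the builds GRCm39 and mm10, and the aligner is not given in the sources used here. Gene positions in the table were those of GRCm38 for 39730 of 39756 genes. Groups and mouse numbers were taken from the labels, no count column was left unused, and mice of a group differed by more than sampling noise (chi-square per degree of freedom at least 2.48).

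The counts were filtered with filterByExpr of edgeR 4.0.16 (run in R 4.3.3), leaving 17558 genes, scaled by TMM, and fitted by its quasi-likelihood model with 1 coefficient per group over all 12 mice. The Benjamini-Hochberg adjustment of p-values ran over all genes tested, and calls used an adjusted p below 0.05. SE and 95% intervals came from the same fit. CPM used the TMM-scaled library sizes, and log2 CPM a prior count of 2. Alternatives were RLE scaling, library size only, no filter, a fit of the groups compared alone, the mouse number as a block, DESeq2 1.42.0, the thresholds of the study's methods (absolute log2 fold change over 0.58, p below 0.01) and leaving out each mouse. The study's thresholds, there used with DESeq2, were applied here to the edgeR estimates and unadjusted p-values. The fit without Vehicle mice 1 and 2 and the 3 ratios were chosen after the data were seen.

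The 10 genes, the pathway lists and the cell type markers were chosen with earlier results of these data known. Named pathway genes were, of each list, the 3 with the smallest p in Vehicle against Sham and the 2 with the smallest p in LJP against Vehicle. Named similar genes were the 3 with the largest Pearson correlation for Ddit3, Hspa5 and Asns. Marker lists covered neurons, astrocytes, microglia and macrophages, neutrophils, oligodendrocytes, endothelial cells, plasma and B cells, and choroid plexus (68 genes). Promoters came from RefSeq (GRCm38.p6), matched by symbol for all 10 genes. Intervals and read numbers cover these mice and their counting error only.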

Additional observations from a re-analysis of the deposited data

Results flagged for a closer look

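Of 30 groups of 4 mice tested for a sample far from the others (10 genes in 3 groups), 1 held such a sample, where chance gives about 1.5. Chac1 in LJP mouse 1 was at 8.72 CPM against 4.96 to 5.57 CPM in the other LJP mice, a gap of 0.837 of the group's whole range, which is above Dixon's limit for 4 samples. LJP mouse 1 was also the highest LJP mouse for 7 of the other genes.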

How the results depend on the processing

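The 5 genes called in Vehicle against Sham became 3 in the fit of the groups compared alone, under the study's thresholds and without Vehicle mice 1 and 2, and 3 to 5 when 1 mouse was left out. The calls of Sdf2l1, Atf5 and Trib3 held in every fit with 1 mouse left out and in every other fit except that of Trib3 without Vehicle mice 1 and 2. All-gene calls in Vehicle against Sham, 7014 as reported, were 3807 under the study's thresholds, 5234 in the fit of the groups compared alone and 7669 by DESeq2. They were 5370 without Vehicle mice 1 and 2, and 5285 to 8200 with 1 mouse left out at the adjusted p below 0.05. Pathway calls, 75 as reported, were 38, 62, 81, 56 and 59 to 86 in the same order. In LJP against Vehicle, 0 of the 10 genes became 0 to 3 when 1 mouse was left out. All-gene calls, 4 in the fit as reported, were 593 with no filter, 2 with the mouse number as a block, 2 in the fit of the groups compared alone, 2399 by DESeq2, 1223 under the study's thresholds, 8 without Vehicle mice 1 and 2, and 3 to 3857 with 1 mouse left out, and pathway calls were 8 with no filter, 28 by DESeq2, 16 under the study's thresholds and 0 to 46 with 1 mouse left out. In LJP against Sham, calls among the 10 genes were 1 with no filter, 2 in the fit of the groups compared alone, 1 by DESeq2, 1 under the study's thresholds, 3 without Vehicle mice 1 and 2 and 0 to 1 with 1 mouse left out. All-gene calls there, 834 as reported, were 833 with no filter, 1036 under the study's thresholds, 464 with the block, 4043 in the fit of the groups compared alone, 1530 by DESeq2, 4389 without Vehicle mice 1 and 2 and 393 to 2357 with 1 mouse left out, and pathway calls, 8 as reported, were 8, 9, 5, 35, 13, 38 and 5 to 18 in the same order. Leaving out Vehicle mice 1 and 2 re-estimates the spread that all comparisons share.

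Signs turned for values that were not called. For Vehicle against Sham with 1 mouse left out, Atf4 ran from -0.0578 (without Vehicle mouse 2) to 0.142 and Hspa5 from -0.0210 (without Vehicle mouse 2) to 0.0651. Without Vehicle mice 1 and 2, Ddit3 was at -0.0037, Atf4 at -0.180, Hspa5 at -0.0606 and Herpud1 at -0.0462. For LJP against Sham with 1 mouse left out, Ddit3 ran from -0.126 to 0.0034 (without LJP mouse 2), Xbp1 from -0.0617 (without LJP mouse 1) to 0.0839, and Herpud1 from -0.0870 to 0.0307, above 0 without Sham mouse 4 or LJP mouse 3. Herpud1 was at 0.0115 there with library size only. The cause was not tested. The block ended the call of Xbp1 in Vehicle against Sham (0.50, adjusted p = 0.056) and no other call of the 10 genes. Same-numbered mice of different groups had correlations of their deviations from -0.32 to 0.11, with 1 of 12 over 0.1, and 2 of 12 mice correlated best with their own number, so the mice share only a number and the fit without the block was used.

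Of the 21 pathway genes named and called in Vehicle against Sham, 20 were called in all 19 alternative fits, Grpel1 in 10. The study's thresholds are not among these 19 fits. These genes were named for small p-values in the same mice, so their stability largely follows from that choice and does not describe the lists. The lists together went from 75 calls to 56 without Vehicle mice 1 and 2 and to 38 under the study's thresholds. Of the 5 called in LJP against Sham, 3 were called in all 19, Eif2ak2 in 12 and Htra2 in 13. Among values not called, signs turned in some fits for Hspa9 in Vehicle against Sham, Eif2ak2 and Nupr1 in LJP against Vehicle, and Creb3l2 in LJP against Sham. Trib3, with 10 to 141 reads, is the gene whose depth limits its precision most.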

Other observations

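Of the marker lists not described above, the astrocyte list summed to 4314 to 4725 CPM in Sham, 4161 to 6363 CPM in Vehicle and 5075 to 6270 CPM in LJP. In Vehicle against Sham 2 of its 8 markers were called higher and 1 lower, beside 22.7% and 17.3% of all genes tested. The oligodendrocyte list summed to 4040 to 4917 CPM, 4951 to 5043 CPM and 3879 to 4896 CPM, with no marker called. The plasma and B cell list summed to 22.0 to 27.6, 6.22 to 30.4 and 8.58 to 26.8 CPM, and 2 of its 8 markers passed the filter on low counts. Choroid plexus markers ranged from 33.5 to 922 CPM in Sham, 26.4 to 542 CPM in Vehicle and 23.3 to 394 CPM in LJP, and were called in no comparison. They lay between 394 and 922 CPM in Sham mice 2 to 4, Vehicle mice 3 and 4 and LJP mouse 3, and between 23.3 and 33.5 CPM in the other 6 mice.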
